A study of Mus musculus with 6 samples.

Results

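The genes described here are 7 of the 30386 in the deposited table, taken by symbol: the simple epithelial keratin genes Krt8, Krt18, Krt19 and Krt7, the mucosal keratin genes Krt4 and Krt13, and Sfn, which encodes 14-3-3 sigma. The libraries came from back skin epidermis of E18.5 mouse embryos, 3 of them wild type (WT) and 3 of the genotype labelled p63alphaKO, in a study whose title asks whether p63 isoforms can be shifted without harm to epidermal homeostasis. Strain, sex and the way the allele was made were not given in the sources used here, nor is it said that the replicates were separate embryos, so each p-value measures the spread between these libraries, which may be technical. Reads were taken from the 3' ends of mRNAs and expressed in CPM, read counts scaled to a common library total, over 2564407 to 4474764 reads. Because such reads do not scale with transcript length, CPM were set side by side between genes with no correction for length.

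Keratins are intermediate filament proteins that assemble only as pairs of a type I and a type II chain. Krt8 (type II) and Krt18 (type I) form the pair of simple, one-layered epithelia, Krt7 and Krt19 join it in ducts and many glands, and Krt4 with Krt13 is the suprabasal pair of internal stratified linings such as the oesophagus. In skin, Krt8 and Krt18 mark the periderm, the flat embryonic layer that covers the epidermis and is shed before birth as the barrier forms, and later the Merkel cells of touch domes. Sfn is a cell cycle and differentiation regulator of stratified epithelia, known as a p53 target and as the gene altered in repeated epilation mice, whose epidermis fails to keratinise.

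In these libraries Sfn was among the most abundant mRNAs and the 6 keratins were close to the limit of detection. Sfn had a mean of 1669.7 CPM, and 54 genes had a higher mean. The keratins had means between 1.54 and 8.24 CPM, below the minimum mean of 10 CPM set for testing. So 1 of the 7 genes, Sfn, was tested in the main comparison, and it was not called by limma, edgeR or DESeq2 (adjusted p = 0.443, 0.363 and 0.345), nor was its unadjusted p under 0.05 in any of these. Of 7464 genes tested with limma, 1.65% were called at an adjusted p under 0.05 (35 or 0.469% higher and 88 or 1.18% lower in p63alphaKO). The lower share of those calls was 71.5%, and 57.5%, 48.1% or 61.1% after TMM, upper quartile or quantile scaling.

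The libraries held what the label names: the keratinocyte markers Krt5, Krt14, Krt1, Krt10, Lor, Flg, Dsp and Perp summed to between 110312 and 119602 CPM, with none called by limma, edgeR or DESeq2 (0 at an unadjusted p under 0.05). Markers of other tissues differed between the groups. The 10 fibroblast and dermis genes summed to 2226 to 4995 CPM in WT and 383 to 744 CPM in p63alphaKO (6 of 8 tested called lower by limma, 5 called by edgeR and 6 by DESeq2), the 8 skeletal muscle genes to 349 to 2259 and 42.6 to 80.4 CPM (5 of 6 called lower by limma, 4 called by edgeR and 5 by DESeq2), and the 6 erythroid genes to 1903 to 3441 and 559 to 1766 CPM (3 of 4 called lower by limma, 0 called by edgeR or DESeq2). The 6 endothelial genes summed to 13.5 to 42.5 CPM in WT and 2.39 to 4.95 CPM in p63alphaKO, none of them tested, and the 6 melanocyte genes to 189 to 318 and 335 to 471 CPM (0 of 3 called by limma, 1 at an unadjusted p under 0.05, 0 called by edgeR and 1 by DESeq2). Their part in the values of the low keratins was not tested. Of 4 mesothelial genes, Msln, Lrrn4 and Wt1 were at 0 in all libraries, and Upk3b was at 1.56 to 4.68 CPM in WT and 5.24 to 9.84 CPM in p63alphaKO.

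The 250 bases before the RefSeq start site are shown for Sfn, the abundant member, and for Krt13 and Krt18, the members whose groups did not overlap. All are read 5′ to 3′ on the gene's strand. Capitals mark CATG, a form of the core of the half-site that p53 family proteins, p63 among them, bind.

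Sfn (GRCm38.p6, chr4:133602169-133602418, minus strand): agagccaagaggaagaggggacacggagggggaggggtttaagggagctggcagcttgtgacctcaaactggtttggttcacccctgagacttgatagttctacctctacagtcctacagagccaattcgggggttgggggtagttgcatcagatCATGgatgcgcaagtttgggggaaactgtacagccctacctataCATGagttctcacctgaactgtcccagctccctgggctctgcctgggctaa
Krt13 (GRCm38.p6, chr11:100121567-100121816, minus strand): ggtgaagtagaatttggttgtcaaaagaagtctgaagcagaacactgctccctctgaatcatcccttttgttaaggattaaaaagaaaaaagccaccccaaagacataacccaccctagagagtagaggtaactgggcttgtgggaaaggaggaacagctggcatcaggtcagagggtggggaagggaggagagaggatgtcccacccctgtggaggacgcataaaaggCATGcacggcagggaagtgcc
Krt18 (GRCm38.p6, chr15:102027966-102028215, plus strand): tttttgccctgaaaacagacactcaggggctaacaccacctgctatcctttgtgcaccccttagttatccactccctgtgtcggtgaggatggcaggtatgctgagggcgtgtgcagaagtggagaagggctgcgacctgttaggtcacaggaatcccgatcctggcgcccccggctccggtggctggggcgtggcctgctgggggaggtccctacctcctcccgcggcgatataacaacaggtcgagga

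CATG, which reads the same on both strands, was found at 2 positions for Sfn, starting 95 and 51 bases before the start, at 1 position for Krt7 and in the window shown for Krt13, and at none for Krt8 or Krt18. The window of a second RefSeq start of Krt13, not shown, also held it, 247 and 232 bases before that start. It occurs in 53.9% of the 32851 RefSeq promoter windows of that length. A pair of CATG with 6 bases between, present in 0.490% of windows, was in none of the windows of these 5 genes, nor was the TATA box TATAAA on the gene's strand (7.59% of windows), which says only that those letters are not there. Other motifs were found in single members. TGANTCA, the AP-1 motif searched with any base at its centre (6.75% of windows, both strands), was found for Krt13. The letters were TGAATCA 196 bases before the start shown, and TGACTCA at 2 positions before the second start. GGGCGG, the GC box (32.7% of windows, both strands), was found at 4 positions for Krt7. Krt4 and Krt19 were not among the RefSeq sequences used.

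Sfn (ENSMUSG00000047281, chr4:133600556-133602168, mm10, minus strand) was at 1668, 1385 and 1459 CPM in WT replicates 1, 2 and 3 and at 1540, 2167 and 1798 CPM in p63alphaKO replicates 1, 2 and 3. WT replicate 1 lay above p63alphaKO replicate 1, so the groups overlapped, while p63alphaKO replicates 2 and 3 were above all WT libraries. The means were 1504 ± 147 CPM in WT and 1835 ± 315 CPM in p63alphaKO (SD, n = 3 each). The log2 fold change, p63alphaKO against WT with a pseudocount of 1 CPM, was 0.28 (SE 0.16, limma adjusted p = 0.443), and its 95% interval of -0.068 to 0.62 covers ratios from 0.954 to 1.54. Each value rested on 4281 to 7443 reads, so counting error was small beside the spread between libraries. Of all tested genes, 16.3% had a larger log2 fold change, and the median over them was -0.085. The value was 0.13 after quantile normalization, 0.15 without p63alphaKO replicate 2 and 0.42 with edgeR on genes of at least 10 reads (adjusted p = 0.770, 0.819 and 0.301).

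**Figure D1:**
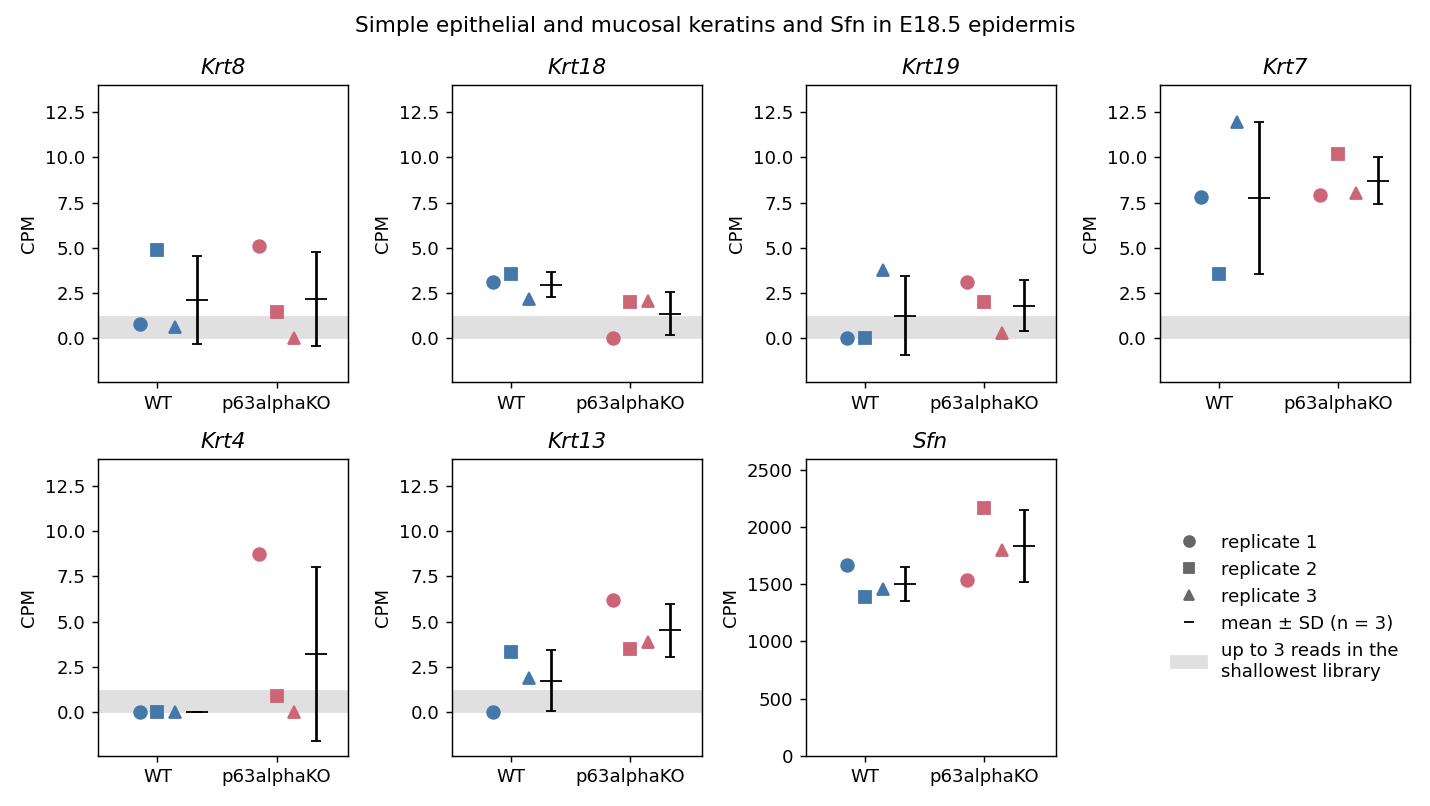
CPM of each gene in each library (points, shaped by replicate number) with the mean ± SD of 3 libraries per group. The grey band ends at what 3 reads are worth in the shallowest library, 1.17 CPM. Sfn has its own axis, and its lowest value is 1385 CPM, while no keratin here passes 11.96 CPM.

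The 14-3-3 proteins are dimeric adaptors that bind phosphorylated partners, and Sfn is the form restricted to epithelia. It alone supplied 53.5%, 44.8% and 46.3% of the reads of the 7 family genes in WT replicates 1, 2 and 3, and 48.5%, 56.3% and 54.4% in p63alphaKO replicates 1, 2 and 3. These shares do not depend on library scaling, and they overlapped between the groups. The 6 other genes summed to 1619 ± 144 CPM in WT and 1609 ± 89.5 CPM in p63alphaKO. None of the 6 was called by limma, with 2 positive and 4 negative log2 fold changes and a median of -0.10, and the largest in size were 0.17 for Ywhae and -0.16 for Ywhab (adjusted p = 0.678 and 0.733). None had an unadjusted p under 0.05 or was called by edgeR or DESeq2.

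Among 16 measured genes of the periderm and its regulators, 14 were tested, 1 was called higher and none lower, 10 were positive, and the median log2 fold change was 0.097, beside 40.2% positive and -0.085 over all tested genes. The called gene was Krt6a, a keratin of the periderm that stressed adult keratinocytes also make. It rose from 39.6 ± 16.8 to 105 ± 30.4 CPM (log2 fold change 1.41, limma adjusted p = 0.0249). All p63alphaKO libraries were above all WT ones, as for 7.6% of tested genes. The call was lost without WT replicate 1 or p63alphaKO replicate 2 or 3 (adjusted p = 0.0528, 0.101 and 0.182), with a minimum mean of 50 CPM (0.0563) and without a variance trend (0.123), and reads may be divided between Krt6a and its close copy Krt6b. Ripk4, a kinase of keratinocyte differentiation, was at 62.2 ± 11.4 and 51.4 ± 7.63 CPM in WT and p63alphaKO (-0.26, adjusted p = 0.625). Klf4, a barrier regulator at a level like that of Sfn, had a value of 0.19 (adjusted p = 0.577). Cldn6, a tight junction gene used as a periderm marker, had reads in p63alphaKO replicate 2 alone, at 1.16 CPM.

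**Figure D2:**
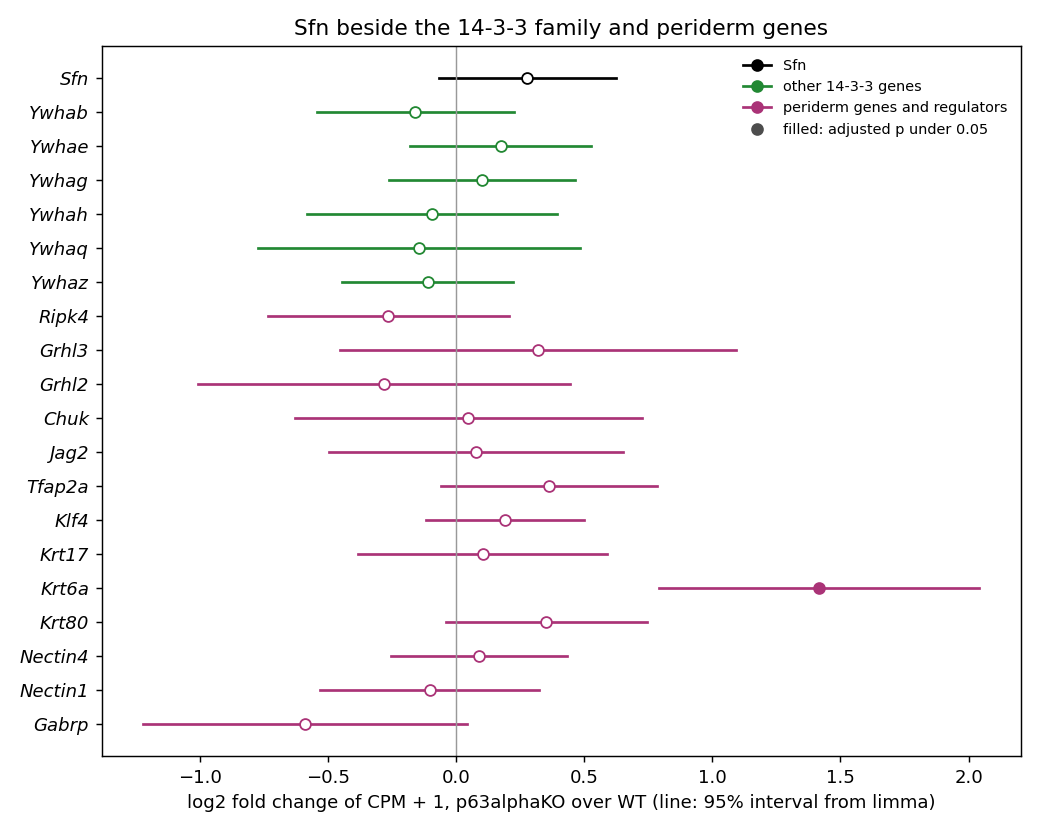
Log2 fold change of p63alphaKO over WT (x axis, CPM + 1) with its 95% interval for Sfn, the 6 other 14-3-3 genes and 13 of the tested periderm genes and regulators. Krt6a, at 1.41, is the only filled point, and the interval of Sfn, -0.068 to 0.62, includes 0.

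Of 22 p53 target genes measured, the group to which Sfn is known to belong, 16 were tested, 8 were positive and 8 negative, none was called by limma (6 at an unadjusted p under 0.05, 0 called by edgeR and 2 by DESeq2), and the median was -0.011. An unadjusted p under 0.05 was found for 15.6% of all tested genes, and the 6 here, Mdm2, Bbc3, Pmaip1, Gadd45a, Trp53inp1 and Plk3, all had positive values. Gadd45a, a growth arrest gene, had the smallest adjusted p, with values of 14.01 ± 5.58 CPM in WT and 29.5 ± 5.98 CPM in p63alphaKO (log2 fold change 1.07, adjusted p = 0.106). Mdm2, the ubiquitin ligase that restrains p53, was at 49.5 ± 18.1 and 95.5 ± 34.3 CPM (0.93, adjusted p = 0.128). The 3 genes whose log2 levels ran most like those of Sfn over the 6 libraries, among 3006 genes of at least 50 CPM, were Rpl18 (Pearson's r 0.974), Atg101 (0.942) and Arih2 (0.939). These r values describe 6 points that share library depth and scaling.

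All 6 keratins together held between 0.0135% and 0.0367% of the keratin reads of a library. The keratin genes summed to 81534 ± 8476 CPM in WT and 77886 ± 7798 CPM in p63alphaKO, most of it from the suprabasal pair Krt1 and Krt10 and the basal pair Krt5 and Krt14, the 4 keratins with means above 1000 CPM. Krt7, Krt8, Krt18 and Krt19 summed to 11.7, 12.1 and 18.6 CPM in WT replicates 1, 2 and 3 and to 16.1, 15.7 and 10.4 CPM in p63alphaKO replicates 1, 2 and 3. The groups overlapped, and their means were 14.1 ± 3.87 and 14.1 ± 3.16 CPM. In order of mean level the members were Krt7, Krt13, Krt18, Krt8, Krt4 and Krt19, and the library values of each neighbouring pair in that order overlapped.

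Of 13 tested epidermal keratins, 10 were positive, with a median of 0.35. Krt77, a suprabasal and sweat duct keratin (149 ± 4.56 to 557 ± 133 CPM, log2 fold change 1.87, limma adjusted p = 0.000219), Krt6a and Krt6b (66.7 ± 36.0 to 172 ± 42.0 CPM, 1.45, adjusted p = 0.0257) were called higher by limma, and Krt15 lower, while edgeR called 3 and DESeq2 4 of the list. The Krt6b call was lost with edgeR on the tested genes (adjusted p = 0.0615), with a minimum mean of 50 CPM (0.0563) and without a variance trend (0.128). It was also lost without WT replicate 1 or p63alphaKO replicate 2 or 3 (0.0586, 0.0892 and 0.196). With edgeR on genes of at least 10 reads Krt6b was called (0.0305).

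**Figure D3:**
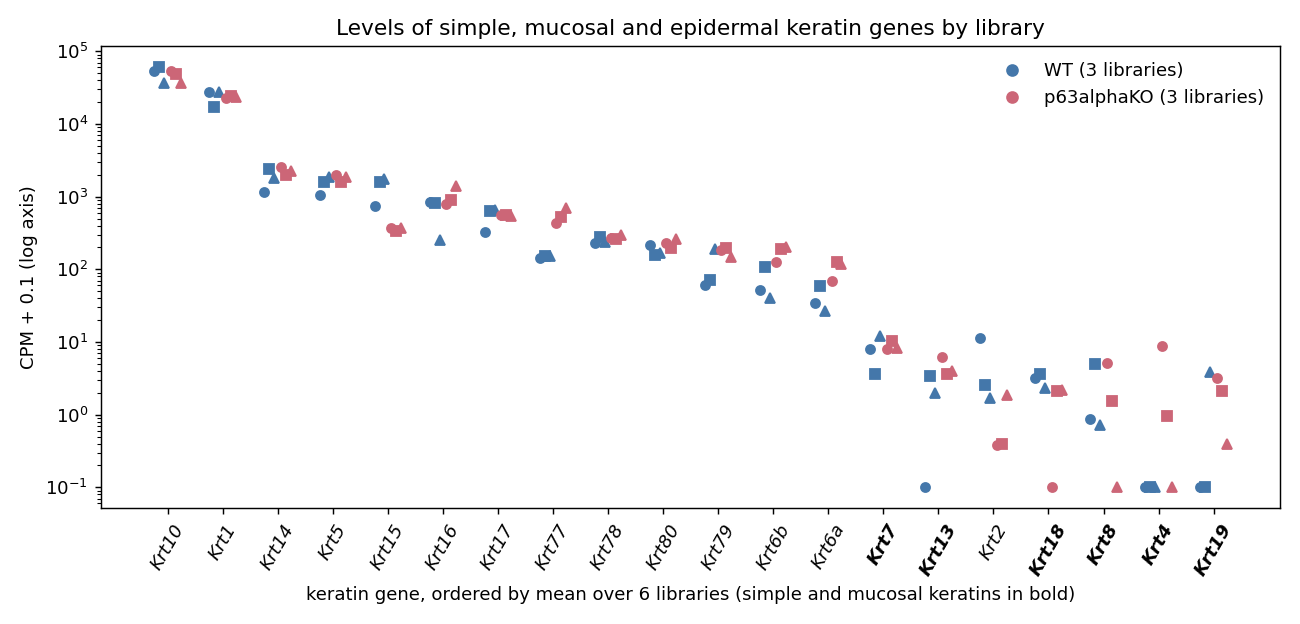
CPM + 0.1 on a log axis for 20 keratin genes in each library, in the order of their mean, WT left and p63alphaKO right. The 6 simple and mucosal keratins (bold) lie at or below 11.96 CPM, at the right end beside the adult suprabasal keratin Krt2, and points at the bottom are listed at 0.

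Krt7 was the one keratin of the set with reads in all libraries. This type II chain of ducts and glands (ENSMUSG00000023039, chr15:101411043-101430313, plus strand) was at 7.79, 3.57 and 11.96 CPM in the WT replicates 1, 2 and 3 and 7.90, 10.2 and 8.05 CPM in those of p63alphaKO, from 16 to 38 reads. WT replicates 2 and 3 were its lowest and highest libraries, with all p63alphaKO values between them. Without a filter on low values its log2 fold change was 0.26 (95% interval -0.80 to 1.32, limma adjusted p = 0.856), and the pooled reads gave a CPM ratio of 1.20 (95% interval 0.875 to 1.66 for counting error only).

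Krt8 (ENSMUSG00000049382, chr15:101996698-102004482, minus strand) and Krt18 (ENSMUSG00000023043, chr15:102028180-102032027, plus strand) are neighbours, 23697 bases apart, and encode partner chains. Krt8 was at 0.78, 4.91 and 0.63 CPM in the WT libraries and at 5.08, 1.46 and 0 CPM in p63alphaKO replicates 1, 2 and 3, so 1 library of each group held most of its reads, 22 of 26 in WT and 18 of 23 in p63alphaKO. Its log2 fold change without a filter was -0.066 (95% interval -1.60 to 1.47, limma adjusted p = 0.976). Krt18 was at 3.12, 3.57 and 2.20 CPM in the WT libraries and 0, 2.04 and 2.09 CPM in those of p63alphaKO. All WT libraries were above all p63alphaKO ones, by as little as 2.20 against 2.09 CPM, or 7 reads each. Pooled over 3 libraries there were 31 reads in WT and 14 in p63alphaKO, a CPM ratio of 0.447 (95% interval 0.220 to 0.865 for counting error only). With the spread between libraries included, the log2 fold change was -0.89 (95% interval -2.18 to 0.39, limma adjusted p = 0.604 without a filter). Of the 4834 genes with a mean of 1 to 10 CPM, 19.4% had groups that did not overlap and 15.6% likewise had all p63alphaKO values below all WT values, and their median log2 fold change was -0.33. The library richest in Krt8, p63alphaKO replicate 1, had no Krt18 read, and WT replicate 2 was the WT library with most reads of both.

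Krt8 exons overlap those of Gm36026 and Krt7 exons those of Gm671, each on the other strand, and the last 500 bases of Krt18 share 91.9% identity over 431 bases with the annotated gene Gm5200. The sources used here do not say whether counting used the strand, so the values of Krt8 and Krt7 are uncertain to that extent. The copy of Krt18 has no entry in the deposited values, and Krt18 reads that match both could have been lost.

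Hepatocytes are a rich source of both chains, and liver mRNAs were present in some libraries. A list of 14 hepatocyte genes, written after this was seen, summed to 14.8, 410 and 1.26 CPM in WT replicates 1, 2 and 3 and to 2.26, 158 and 11.9 CPM in p63alphaKO replicates 1, 2 and 3. WT replicate 2 was the highest library for 13 of them, among them Alb, the serum albumin gene, at 140 CPM there, and Afp was at 0 in all 6 libraries. WT replicate 2 was also the highest WT library for Krt8 and Krt18, whereas p63alphaKO replicate 1, with 5.08 CPM of Krt8, had 2.26 CPM of the list. Without WT replicate 2 the log2 difference of Krt8 was 0.53, and that of Krt18 -0.78. Without p63alphaKO replicate 1, which had no Krt18 read, that of Krt18 was -0.36, against -0.89 with all libraries. The parts of liver RNA and of the other tissues above in these values were not tested.

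Merkel cell markers did not all differ one way between the groups. Of 17 listed genes 3 were tested and none called by limma, edgeR or DESeq2 (1 at an unadjusted limma p under 0.05). Krt20, the keratin specific to Merkel cells in skin, was between 0 and 0.94 CPM in all libraries, Syp and Snap25, genes of secretory vesicles, were at 0 throughout, and Atoh1, the factor that specifies the lineage, was at 3.51, 2.01 and 0 CPM in the WT libraries and 0.56, 0 and 0.30 CPM in those of p63alphaKO. Sox2, a factor of the same lineage, had 0, 0.67 and 0 CPM in the WT replicates 1, 2 and 3 and 1.13, 2.33 and 2.39 CPM in those of p63alphaKO. Its groups did not overlap, as for 3.74% of genes with a mean of 1 to 10 CPM in that direction. Those values rested on 3 reads in WT and 20 in p63alphaKO, and Sox2 was not called without a filter (limma adjusted p = 0.251). Piezo2, the mechanically gated channel, had means of 6.93 ± 2.52 CPM in WT and 2.46 ± 3.12 in p63alphaKO, and Isl1, a homeobox gene, 1.86 ± 3.22 and 3.69 ± 2.12 CPM. The whole list summed to 349 to 376 CPM in WT and 362 to 375 CPM in p63alphaKO. Nearly all of it came from its 3 tested genes, Fam46a (mean 182 CPM over the 6 libraries), Rest (81.8 CPM) and Chga. Other cells also express these 3, so the sum is no measure of Merkel cells. One of them, Chga, had levels of 65.2 ± 13.0 and 99.5 ± 11.996 CPM in WT and p63alphaKO (log2 fold change 0.61, adjusted p = 0.154).

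Krt19 (ENSMUSG00000020911, chr11:100140810-100148665, minus strand), the small type I chain found in ducts and in the hair follicle bulge, had 0, 0 and 3.78 CPM in the WT replicates 1, 2 and 3 and 3.11, 2.04 and 0.30 CPM in those of p63alphaKO. The groups overlapped, and only 3 of the 6 libraries had more than 3 reads. The log2 fold change without a filter was 0.59 (95% interval -0.82 to 1.9996, limma adjusted p = 0.751). The difference was 0.21 without WT replicate 1 or WT replicate 2, 1.34 without WT replicate 3, and 0.24 and 1.07 without p63alphaKO replicates 1 and 3. Hair follicle and bulge genes, 9 tested of 15, had 8 positive values, with Plet1 called higher and Krt15 called lower. Of the 6 genes under the minimum mean, Cd34 was at 24.9, 19.9 and 10.1 CPM in the WT libraries. It had 0.85, 1.75 and 0 CPM in those of p63alphaKO. Without a filter it was called lower (log2 fold change -3.40, limma adjusted p = 0.0219), as were 0.513% of genes. Shh (1.31) and Lgr5 (0.97) went the other way and were not called. The part of other tissues in the Cd34 values was not tested. Krt15, which shares the bulge with Krt19, fell from 1347 ± 530 to 361 ± 18.6 CPM (log2 fold change -1.80, limma adjusted p = 0.00164, and 0.0567 without a variance trend). The mean level of Krt19 was 1.26 CPM in WT and 1.82 CPM in p63alphaKO. Plet1, a gene of the upper hair follicle, rose from 186 ± 101 to 512 ± 90.1 CPM (1.65, limma adjusted p = 0.0316). Leaving out any 1 of the p63alphaKO libraries ended that call (adjusted p = 0.0855, 0.0847 and 0.218). So did edgeR (0.0810) and DESeq2 (0.135) on the tested genes, and limma without a filter (0.0550) or with a minimum mean of 50 CPM (0.0666). Quantile normalization (0.0577) and a fit without a variance trend (0.153) also ended it. With edgeR on genes of at least 10 reads Plet1 was called (0.0400). Without WT replicate 3 the log2 fold change was 1.05.

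Krt13 (ENSMUSG00000044041, chr11:100117327-100121566, minus strand), the type I mucosal chain, had 0, 3.35 and 1.89 CPM in the WT replicates 1, 2 and 3 and 6.21, 3.49 and 3.88 CPM in those of p63alphaKO. All p63alphaKO values were above all WT values, the closest being 3.49 and 3.35 CPM. That pattern was found in 3.74% of genes with a mean of 1 to 10 CPM. The pooled reads were 21 in WT and 47 in p63alphaKO, a CPM ratio of 2.21 (95% interval 1.30 to 3.90 for counting error only). Krt13 was not called when the low genes were tested, with a log2 fold change of 1.22 (95% interval -0.17 to 2.60, limma adjusted p = 0.472) and with edgeR on its reads an adjusted p of 0.561. Without WT replicate 1, which had no Krt13 read, the log2 difference was 0.61.

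Krt4 (ENSMUSG00000059668, chr15:101918535-101924735, minus strand), the type II partner of Krt13, was at 0 in all WT libraries and at 8.75, 0.87 and 0 CPM in p63alphaKO replicates 1, 2 and 3. Of its 34 reads, 31 came from p63alphaKO replicate 1. For 0.248% of the genes with a mean of 1 to 10 CPM, the richest library held as large a share of the summed CPM. That cut, 91.0%, was the share seen for Krt4 itself, so the figure describes the pattern and tests nothing. Krt4 was not called by limma without a filter (adjusted p = 0.397) or by edgeR (adjusted p = 0.205). Without p63alphaKO replicate 1, the remaining 3 reads gave a log2 difference of 0.45.

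p63alphaKO replicate 1 was also the highest library for Krt13 and Krt8. Of the 9 measured genes on the list of mucosal stratified epithelium, 1 was tested and none called by limma, edgeR or DESeq2 (0 at an unadjusted p under 0.05). Krt76, a keratin of the hard palate, was at 0.28 and 0.29 CPM in p63alphaKO replicates 1 and 2 (1 read each) and 0 elsewhere, Sprr3, an oesophageal envelope gene, at 1.69 CPM in p63alphaKO replicate 1 and 0 elsewhere, and Nkx2-1 at 0 in every library. Other low genes of the list went the other way. Krt36, which hair also makes, was at 3.12 and 1.56 CPM in WT replicates 1 and 2 and at 0 elsewhere. Pax9 and Krt84 had reads in WT replicate 1 alone, at 2.73 and 0.39 CPM. The list summed to 239 to 292 CPM in WT and 269 to 298 CPM in p63alphaKO, most of it from Krt78, which epidermis also makes. The part of mucosal cells in the Krt4 and Krt13 values was not tested.

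When all 7 genes were tested together with other low genes, none was called by limma (0.672% of 16363 genes called, 0.159% higher and 0.513% lower) or by edgeR on the reads (1.36% of 13518 genes called, 0.481% higher and 0.88% lower). At an unadjusted p under 0.05 limma had Krt4 (adjusted p = 0.397), and edgeR had Krt4 and Sfn (adjusted p = 0.205 and 0.301). Of the 6 keratins 4 had positive log2 differences, with a median of 0.43. Over genes with a mean of 1 to 10 CPM, 32.5% were positive and the median was -0.33. The median over all 7 genes, 0.28, was the value of Sfn itself. Fewer cells of a type and less mRNA per cell cannot be told apart in such bulk libraries.

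The general epithelial list held 20 genes, 5 of them under the minimum mean like these keratins. Of the 15 tested 11 were positive, with a median of 0.050 and none called by limma (3 at an unadjusted p under 0.05, 0 called by edgeR and 1 by DESeq2). The smallest adjusted p values were those of the tight junction gene Cldn4, at 107 ± 22.1 and 174 ± 15.1 CPM (0.71, adjusted p = 0.0725), and of the adherens junction gene Cdh1, at 1046 ± 173 and 1475 ± 196 CPM (0.50, adjusted p = 0.146). On the list for glands and visceral simple epithelium, 2 of 15 genes were tested, none was called by limma, edgeR or DESeq2 (1 at an unadjusted p under 0.05), and Vil1, Cdx2, Foxa2 and Tff3 were at 0 in all libraries. Krt23, a type I keratin often grouped with simple epithelial chains, had 449, 500 and 364 CPM in the WT replicates 1, 2 and 3 and 593, 523 and 647 CPM in those of p63alphaKO. Its groups did not overlap, as for 7.6% of tested genes in that direction, and it was not called (log2 fold change 0.43, limma adjusted p = 0.217). Linkers that tie keratins to desmosomes and hemidesmosomes, 10 tested, had 5 positive and 5 negative values and none called by limma, edgeR or DESeq2 (1 at an unadjusted p under 0.05), with the desmosomal plaque gene Pkp1 at -0.44 (adjusted p = 0.215).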

How the data were processed

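Back skin epidermis of E18.5 embryos was parted from dermis with Dispase, per the series' design text, and 3' digital mRNA sequencing followed, per the labels' protocols. Those 2 texts name different RNA kits. STAR, HTSeq and mm10 stand in the submitters' processing notes, with versions, annotation and strand setting not given in the sources used here. Values in the deposited table are in CPM. Whole reads were recovered from 100% of values within 0.0055 CPM, and 3 reads, the limit used for values of 0, are worth 0.670 to 1.17 CPM. Intervals on reads cover counting error only.

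Genotypes were compared with limma 3.58.1 in R 4.3.3, with a variance trend, on log2(CPM + 1), two-sided, with genotype as the only term, over the 7464 genes whose mean reached 10 CPM (25.6 to 44.7 reads), with Benjamini-Hochberg adjustment and calls at an adjusted p under 0.05. This scale understates changes of low genes. With 3 libraries against 3 an exact permutation test cannot go below p = 0.1, and none was run. Alternatives were other pseudocounts, filters and scalings, a replicate block, each library left out, edgeR 4.0.16 and DESeq2 1.42.0 on the recovered reads. edgeR over genes with at least 10 reads, and the lists of hepatocyte and mucosal surface genes, were chosen after seeing the data. The steps were tested on simulated counts.

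The members and gene lists were chosen with earlier results of these data known. Named are all members, the called genes of each list or else the 2 with the smallest p, and the 3 genes most like each tested member. Other genes named from the lists were chosen after their values were seen. Among them were Ripk4, Klf4, Cldn6, Krt20, Atoh1, Sox2, Piezo2, Isl1, Fam46a, Bbc3, Cd34, Shh, Lgr5, Krt76, Sprr3, Krt36, Pax9 and Krt84. Not every gene the rule names is discussed, and 1 tested gene of the lists is not reported here. Positions are from GENCODE M21, which holds 30271 of the 30386 gene IDs, and promoter sequences, matched for 5 of 7 members, from RefSeq on GRCm38.p6.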

Additional observations from a re-analysis of the deposited data

How the results depend on the processing

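Sfn kept a positive log2 fold change without a call in all 18 alternatives run (0.13 to 0.42, adjusted p from 0.247 to 0.819), and 0 members were called in any of the 19 settings, each over the members it tested. The unadjusted limma p of Sfn was 0.042 with TMM factors, 0.033 with upper quartile factors and 0.0497 without p63alphaKO replicate 1. It was 0.029 with edgeR on genes of at least 10 reads, and above 0.05 in every other setting. The count of called genes was 36 with a minimum mean of 50 CPM, 41 without a variance trend and 317 with DESeq2, and 37 to 186 with 1 library left out, with 46, 67 and 37 without p63alphaKO replicates 1, 2 and 3 and 186 without WT replicate 1. The median log2 fold change over tested genes was -0.085 as deposited, 0.018 with TMM factors and 0.048 with upper quartile factors. Groups did not overlap for 2 members (Krt13 and Krt18) as deposited, for 1 (Krt13) with TMM factors or with upper quartile factors, and for 2 to 4 with 1 library left out, Sfn being among them without WT replicate 1 or p63alphaKO replicate 1. As deposited, groups did not overlap for 21% of tested genes and 19.4% of genes with a mean of 1 to 10 CPM. No such share was computed for the other settings. Fewer libraries separate more easily, so the counts with 1 left out cannot be read against these shares. The 6 keratins kept their sign in all but 5 of 72 values, 4 of them of Krt8 (0.0046 with a pseudocount of 5, 0.53 without WT replicate 2, 0.58 without p63alphaKO replicate 3 and 0.092 with edgeR) and 1 of Krt7 (-0.14 without WT replicate 2). The difference of the summed simple keratins, p63alphaKO minus WT, went from -1.22 to 2.22 CPM with 1 library left out, against -0.017 CPM in the main comparison. With the replicate block, 127 genes were called and Sfn had an adjusted p of 0.550. Same-numbered libraries did not deviate together (r = -0.023, 0.066 and -0.11 over genes), so the numbers were not taken as pairs. The cause of each of these shifts was not tested. No keratin of the set had more than 38 reads in a library, which limits what their values can show.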

Other observations

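Psca, a surface protein gene of mucosal epithelia, was singled out after its values were seen because its reads fell in the same libraries as those of Krt4. It was at 5.65, 0.87 and 0 CPM in p63alphaKO replicates 1, 2 and 3 and at 0 in all WT libraries, from 20 and 3 reads, beside 31 and 3 reads of Krt4. Foxa1, a transcription factor of glands and ducts, was at 3.95 CPM in p63alphaKO replicate 1 and 1.34 CPM in WT replicate 2 and at 0 in the other libraries. Cldn7, a claudin of simple and transitional epithelia, was at 1.41 CPM in p63alphaKO replicate 1 and at 0 elsewhere. A list of 8 mucosal surface genes, written after these values were seen, summed to 3.51, 10.9 and 4.09 CPM in WT replicates 1, 2 and 3 and to 22.9, 6.69 and 2.39 CPM in those of p63alphaKO, and 5 of the 8 were highest in p63alphaKO replicate 1. Since the genes were picked from values already seen, this sum and count describe the choice and test nothing. Krt36 and Pax9, from the earlier list of mucosal stratified epithelium, had reads in WT libraries alone and were not on that list of 8. Krt36 is not particular to mucosa.

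Among the hepatocyte genes, Ttr, which encodes a thyroxine carrier, was at 28.1 CPM in WT replicate 2 and 20.7 CPM in p63alphaKO replicate 2, and Fabp1, the liver fatty acid binding protein gene, at 15.4 and 1.75 CPM in the same libraries. Both were at or below 1.79 CPM in the other 4 libraries.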
